A study of Mus musculus with 6 samples.

Results

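The enzymes that write and erase DNA methylation were followed in the heads of E8.5 Jarid1b knockout and heterozygous mouse embryos. Their 9 genes are Dnmt1, Dnmt3a, Dnmt3b, Dnmt3l, Uhrf1, Tet1, Tet2, Tet3 and Tdg. A gene was taken from the array table where the platform annotation pairs a row (a probe set) with that symbol alone, which gave 11 rows for 8 genes, of 21789 rows for 19938 genes tested. Tdg has no such row, because all 4 rows that list it are shared with its pseudogene Tdg-ps2, and no value is given for it. Tet1 is measured by 3 rows and Tet3 by 2, and the row with the highest mean over the 6 arrays, called row 1, stood for each gene.

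The tested embryos were constitutive Jarid1b knockouts, which lost an exon of both alleles through Cre recombinase driven by the Cmv promoter. The controls were heterozygotes with a single intact allele, not wild-type embryos, and both groups are labelled C57BL/6 and untreated. Each of the 3 knockout and 3 heterozygote samples pooled 4 heads, so that differences between single embryos are averaged out. The arrays were Affymetrix mouse Gene ST, and values are given here as log2 intensity, and a log2 fold change is knockout minus heterozygote.

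Methyl groups on cytosine are placed mainly where a C is followed by a G, and they help to keep germline genes, imprinted alleles and the inactive X chromosome silent. Dnmt3a and Dnmt3b place new methyl groups, with Dnmt3l as a partner that lacks activity of its own, while Dnmt1, brought to replicated DNA by Uhrf1, copies the pattern to the new strand. Tet enzymes oxidize the methyl group, and Tdg excises the oxidized base, which base excision repair then replaces. Jarid1b removes methyl groups from lysine 4 of histone H3, a residue that the Dnmt3 proteins bind when it carries no methyl group, so the question here was whether the transcripts of this machinery differed in its absence.

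The enzymes' own promoters differ in how many of these C-G pairs they hold. In windows from 250 bases before to 50 after an annotated start, taken from RefSeq for GRCm38.p6, the median over 32851 windows was 7 CG pairs, a motif that reads the same on both strands. All 9 genes had at least 1 window, 16 in all. The single window of Tet2 held 57 pairs, a count reached by 0.152% of all windows, and that of Dnmt3b held 30, reached by 11.7%. The 3 windows of Dnmt3l held 3 to 6, and 56.4% of all windows held 6 or more. The windows of Tet1, Tet3 and Tdg held 17, 22 and 26, while Dnmt1, Dnmt3a and Uhrf1 each had windows of unequal count, the highest at 33, 47 and 33. The letters are a description of these windows, since no methylation was measured. The windows of Dnmt3b (chr2:153649199-153649498, plus strand) and of the first Dnmt3l start (chr10:78042037-78042336, plus strand) are printed to show the enzymes' substrate in a promoter rich in CG and in one close to the median of all windows, with each CG in capitals.
Dnmt3b: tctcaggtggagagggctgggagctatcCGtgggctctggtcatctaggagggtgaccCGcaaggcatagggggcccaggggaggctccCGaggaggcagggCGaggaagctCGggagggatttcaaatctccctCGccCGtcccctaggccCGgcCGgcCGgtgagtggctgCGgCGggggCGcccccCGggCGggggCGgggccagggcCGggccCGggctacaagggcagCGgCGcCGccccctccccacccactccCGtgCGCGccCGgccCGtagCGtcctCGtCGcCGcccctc
Dnmt3l: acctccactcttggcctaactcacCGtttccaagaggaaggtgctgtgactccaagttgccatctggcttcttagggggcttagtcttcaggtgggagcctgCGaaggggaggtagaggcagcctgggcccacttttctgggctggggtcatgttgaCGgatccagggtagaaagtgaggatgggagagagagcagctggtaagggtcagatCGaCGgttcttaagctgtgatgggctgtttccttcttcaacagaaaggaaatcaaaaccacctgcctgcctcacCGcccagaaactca

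Jarid1b (Kdm5b) was low in every knockout pool, at 7.63, 7.47 and 7.71, against 9.17, 9.12 and 9.16 in heterozygotes. It was the only one of 21789 rows, or 0.00459%, at an adjusted p under 0.05 in limma (log2 fold change -1.55, adjusted p = 6.29e-04). Markers of the neural ectoderm had a similar summed intensity in both groups, 2787 to 2822 in knockouts and 2765 to 2906 in heterozygotes over 8 genes. Of these, Six3 was lower and Sox1 higher at an unadjusted p under 0.05 (limma, adjusted p = 0.457 and 0.443), as were 4.66% and 5.97% of all rows. The sums of 8 head mesenchyme markers did not overlap, at 3325 to 3397 in knockouts and 3417 to 3568 in heterozygotes. Of these 8, none had an unadjusted p under 0.05 (limma), and 2 were lower without overlap, as were 9.03% of all rows. The brightest 7263 rows, which hold 7 of the 8, had 16.8% lower without overlap. Markers of heart and of yolk sac visceral endoderm were also bright in pools of both genotypes. Of 6 heart markers, Hand2 and Tbx5 were lower in knockouts at an unadjusted p under 0.05 (limma, adjusted p = 0.358 and 0.465), as were 4.66% of all rows, and none was higher. Knockout replicate 3 stood apart in the 6 visceral endoderm markers, with a summed intensity of 3298 against 7298 and 7306 in the other knockout pools and 6387 to 7498 in heterozygotes. The 5 measured markers of primitive blood summed to 249, 1752 and 407 in knockout replicates 1 to 3, against 262, 181 and 266 in heterozygotes. The sex of the pooled embryos differed too. The mean log2 intensity of 3 Y-linked genes was 7.52 to 7.94 in knockouts and 7.97 in heterozygote replicate 2, but 6.24 and 6.16 in heterozygote replicates 1 and 3. Xist, transcribed from the inactive X chromosome, was at 8.82, 3.74 and 8.91 in knockout replicates 1 to 3, against 10.17, 4.22 and 10.08 in heterozygotes. Fold changes moved with intensity, since the dimmest 7263 rows had a median of 0.056 on the log2 scale and the brightest 7263 rows a median of -0.035.

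None of the 8 measured enzymes differed between the genotypes past the threshold of an adjusted p of 0.05 (limma, adjusted p from 0.505 to 0.971). None was higher or lower at an unadjusted p under 0.05 either, where 5.97% of all rows were higher and 4.66% lower. Their log2 fold changes ran from -0.13 for Tet3 to 0.14 for Tet2, with 3 positive and 5 negative and a median of -0.022, beside -0.001 over all rows. All 8 of the 95% confidence intervals stayed inside a 1.5-fold change in either direction, and 6 stayed inside 1.2-fold. Over all 21789 rows, 21395 and 12230 stayed inside these bounds. Of the brightest 7263 rows, which hold 6 of the 8 enzymes, 7233 and 5786 did. The pools of the 2 genotypes did not overlap for Dnmt3b, which was lower in knockouts, as were 9.03% of all rows, and no enzyme was higher without overlap, as were 8.03%. In whole heads, fewer cells of a type and less RNA per cell cannot be told apart. The smallest p that an exact permutation test could reach with 3 pools on either side is 0.1.

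**Figure D1:**
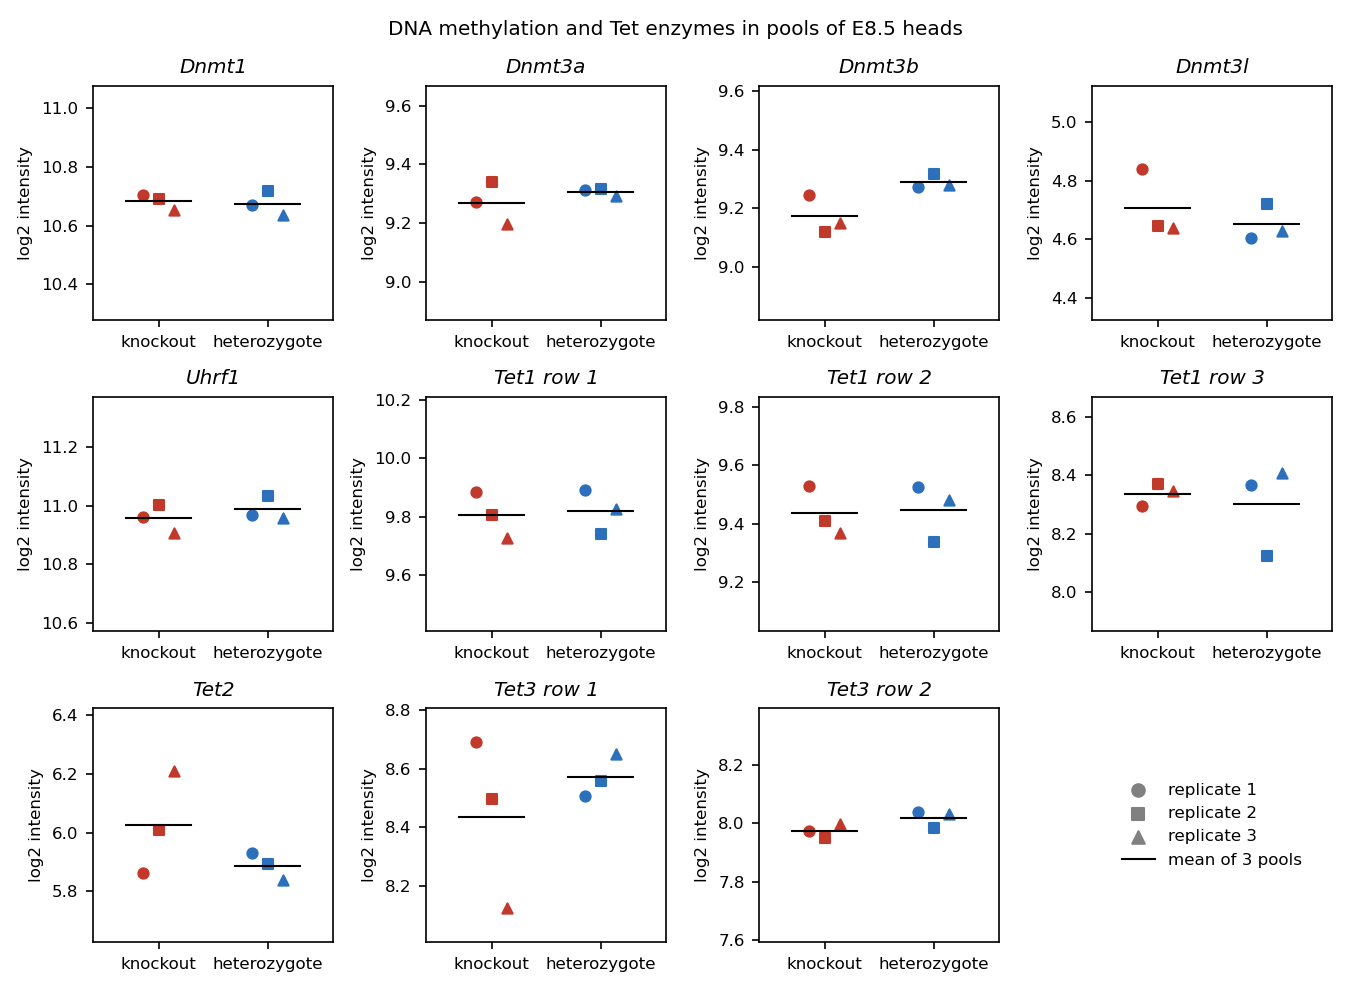
Log2 intensity of the 11 rows of 8 enzymes in each pool, with knockout pools in red on the left of each panel and heterozygote pools in blue on the right, a symbol for each replicate number, black lines at group means (n = 3), and the same height of scale in every panel. The pools of Dnmt3b do not overlap (9.12 to 9.25 in knockouts and 9.27 to 9.32 in heterozygotes), and knockout replicate 3 lies apart at 8.12 in Tet3 row 1 but not in Tet3 row 2.

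The copying of methylation at replication is the task of Dnmt1 and Uhrf1, and both were measured with little spread. Dnmt1 had a log2 intensity of 10.70, 10.69 and 10.65 in the knockout pools, against 10.67, 10.72 and 10.64 in the heterozygote pools. The groups overlapped throughout, and their means were 10.68 ± 0.03 in knockouts and 10.67 ± 0.04 in heterozygotes (SD, n = 3 each). Its log2 fold change was 0.01 with a standard error of 0.05 (limma, adjusted p = 0.971), and the interval from -0.11 to 0.13 leaves room for a change of at most 1.09-fold. Uhrf1, which recognizes DNA methylated on a single strand, was at 10.962, 11.004 and 10.908 in knockouts, against 10.970, 11.034 and 10.959 in heterozygotes. Again the groups overlapped, with a log2 fold change of -0.03 and an interval from -0.16 to 0.10 (limma, adjusted p = 0.868), or at most 1.11-fold. Both genes are used mainly by dividing cells, and 16 measured genes of DNA replication and the cell cycle had a median log2 fold change of -0.023, with none at an unadjusted p under 0.05. That list ran from -0.10 for Tyms, which makes thymidylate, to 0.08 for Pcna, the sliding clamp that Dnmt1 binds.

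Of the enzymes that place new methyl groups, Dnmt3b lay lower in the knockouts without passing the test. Its log2 intensity was 9.25, 9.12 and 9.15 in the knockout pools, against 9.27, 9.32 and 9.28 in the heterozygote pools. The highest knockout pool, replicate 1, lay just below the lowest heterozygote pool. The means were 9.17 ± 0.07 in knockouts and 9.29 ± 0.02 in heterozygotes (SD, n = 3 each). The log2 fold change of -0.12 had a standard error of 0.06 and an interval from -0.25 to 0.01, which is a level 0.922 times that of heterozygotes (limma, unadjusted p = 0.0723, adjusted p = 0.505). Dnmt3b belongs to the brightest 7263 rows, of which 16.8% were lower in knockouts without overlap and 3.06% higher. After quantile normalization and cyclic loess its log2 fold change was -0.09 and -0.08. Its pools did not overlap in either setting, where 6.93% and 7.22% of all rows were lower without overlap.

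Dnmt3b is strongly transcribed in the epiblast and early ectoderm, and markers of these tissues moved with it only in part. The summed intensity of 6 epiblast markers was 644, 408 and 480 in knockout replicates 1 to 3, against 551, 528 and 637 in heterozygotes. Among them, Pou5f1, a pluripotency factor, was at 8.14, 7.10 and 7.56 in knockouts, against 7.93, 7.63 and 8.08 in heterozygotes, with none of the 6 at an unadjusted p under 0.05. Knockout replicates 2 and 3 were the lowest pools for both Dnmt3b and this list, but replicate 1, whose Dnmt3b also lay below every heterozygote, was the highest pool for the list. The summed level of 6 surface ectoderm markers was 6280, 6335 and 5689 in knockout replicates 1 to 3, against 6714 to 6964 in heterozygotes. Replicate 2, the lowest pool for Dnmt3b, was the highest knockout for this sum and for its brightest genes, Krt18 and Krt8. Replicate 1, the highest knockout for Dnmt3b, was also the highest knockout for Cdh1, Esrp1, Grhl2 and Epcam. All 6 were lower in the mean and 3 had an unadjusted p under 0.05, as had 4.66% of all rows on the lower side and 6.71% of the brightest 7263, but none an adjusted one (limma). The neural ectoderm sums overlapped between the groups. The part of these tissues in the Dnmt3b values was not tested.

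Dnmt3a was at 9.27, 9.34 and 9.20 in the knockout pools, against 9.31, 9.32 and 9.29 in the heterozygote pools. The highest and the lowest of the 6 values were both in knockouts. Its log2 fold change was -0.04, with an interval from -0.17 to 0.09 (limma, adjusted p = 0.832). The partner Dnmt3l, known for its role in germ cells, was dim, at 4.84, 4.65 and 4.64 in knockouts, against 4.61, 4.72 and 4.63 in heterozygotes. Knockout replicate 1 was the highest pool, and the other knockouts lay within the heterozygote range. Its log2 fold change of 0.06 (interval from -0.11 to 0.22, limma adjusted p = 0.805) was close to the median of 0.056 in the dimmest 7263 rows, to which it belongs, and quantile normalization brought it to -0.0031. Of 6 markers of primordial germ cells, 3 lay in the dimmest 7263 rows. Nanos3 and Dnd1 were higher in knockouts at an unadjusted p under 0.05, as were 5.97% of all rows. They were at 0.30 and 0.23 (limma, adjusted p = 0.391 and 0.438). Dazl, Prdm14, Prdm1 and Dppa3 were at 0.02, 0.01, -0.06 and -0.07. The summed intensity of the 6 was 410, 357 and 350 in knockout replicates 1 to 3, against 358 to 368 in heterozygotes. Nanos3, Dnd1, Prdm1 and Dazl were highest in knockout replicate 1, while Prdm14 and Dppa3 were not. The part of germ cells in the Dnmt3l values was not tested.

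**Figure D2:**
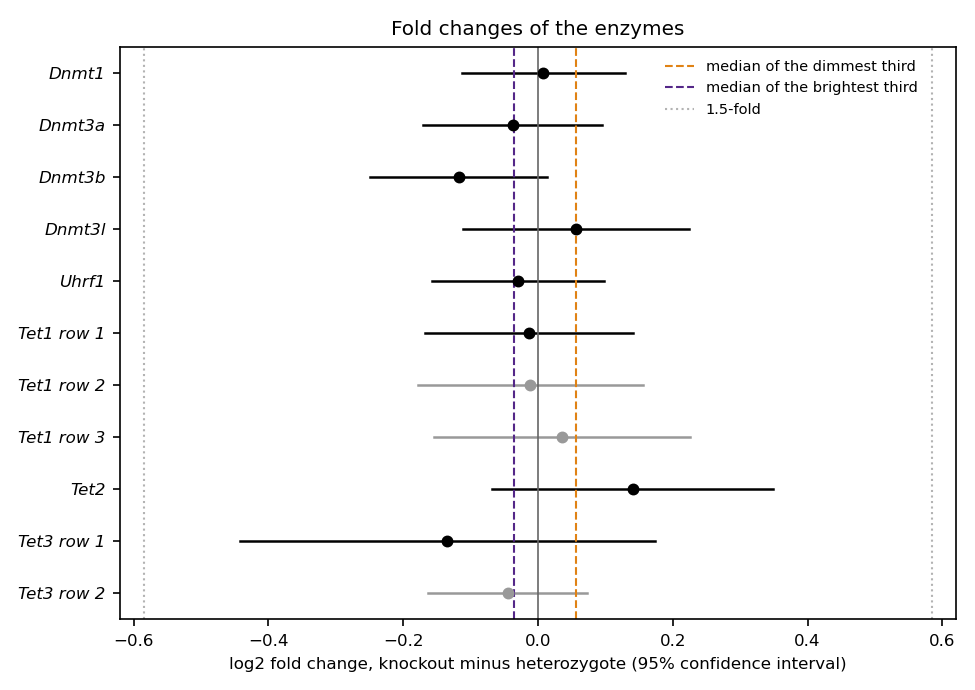
The difference between knockout and heterozygote means on the log2 scale is shown for every row (points) with its 95% confidence interval (lines), in black for the row that stands for a gene and in gray for further rows, with dotted lines at a 1.5-fold change and dashed lines at the medians of the dimmest (0.056) and of the brightest (-0.035) 7263 rows. Every interval spans 0 and stays inside the dotted lines, and the interval of Tet3 row 1, from -0.44 to 0.17, is the widest of the 11.

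Among the Tet enzymes, Tet1 differed least. Its row 1 was at 9.88, 9.81 and 9.73 in the knockout pools, against 9.89, 9.74 and 9.83 in the heterozygote pools, with a log2 fold change of -0.01 and an interval from -0.17 to 0.14 (limma, adjusted p = 0.958). Its other rows gave -0.01 and 0.04. In row 3, heterozygote replicate 2 was the lowest pool, at 8.12, while the other 5 pools lay between 8.29 and 8.41. The same pool was the lowest in row 2, and in row 1 it lay just above knockout replicate 3.

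Tet2, which unlike Tet1 and Tet3 lacks a DNA-binding CXXC domain, had the highest log2 fold change of the 8 enzymes. It was at 5.86, 6.01 and 6.21 in the knockout pools, against 5.93, 5.89 and 5.84 in the heterozygote pools. Knockout replicates 2 and 3 lay above all heterozygotes and replicate 1 within their range, so the groups overlapped. The log2 fold change was 0.14, with a standard error of 0.09 and an interval from -0.07 to 0.35 (limma, adjusted p = 0.602), and at its upper end the change would be 1.27-fold. It rested on knockout replicate 3, since it was 0.05 without that pool and 0.22 without knockout replicate 1. Knockout replicates 2 and 3, the highest pools for Tet2, also had the highest summed levels of primitive blood markers. These were 1752 and 407, against 249 in the other knockout pool and 181 to 266 in heterozygotes. Between these 2 pools, replicate 2, with the higher blood sum, had the lower Tet2 value, 6.01 against 6.21. Hba-x, Hbb-bh1, Hbb-y and Gata1 were highest in replicate 2 as well. Klf1, the other of the 5 markers, was at 5.02, 5.18 and 5.29 in knockout replicates 1 to 3 and 4.87 to 4.95 in heterozygotes. Klf1 alone of them had an unadjusted p under 0.05 (limma, adjusted p = 0.398), higher in knockouts as were 5.97% of all rows. Tet2 is known for its role in blood cells, and the part of these cells in its values was not tested.

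Tet3 had the widest range over the 6 pools, and its rows differed from each other. Row 1 was at 8.691, 8.496 and 8.124 in the knockout pools, against 8.506, 8.559 and 8.650 in the heterozygote pools. Knockout replicate 1 was the highest pool and knockout replicate 3 the lowest. The means were 8.44 ± 0.29 in knockouts and 8.57 ± 0.07 in heterozygotes (SD, n = 3 each), with a log2 fold change of -0.13 (limma, adjusted p = 0.743). Without knockout replicate 3 it was 0.02. Row 2 of the same gene was at 7.973, 7.949 and 7.996 in knockouts, against 8.037, 7.983 and 8.032 in heterozygotes, and showed no such drop. Row 1 minus row 2 was 0.72, 0.55 and 0.13 in knockout replicates 1 to 3, against 0.47 to 0.62 in heterozygotes. No source used here gives the position of each row's probes along the transcript.

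The drop of Tet3 row 1 in knockout replicate 3 fell in the pool that was low in visceral endoderm markers. The 3 rows of other genes closest to Tet3 row 1, by the root mean square difference over the 6 pools after centring each row on its mean, were those of Apoe, Gprin1 and Calb2, at differences of 0.039, 0.041 and 0.043. Apoe, an apolipoprotein, was at 10.70 in knockout replicate 3, against 11.14 and 11.25 in the other knockouts and 11.17 to 11.24 in heterozygotes. Gprin1 and Calb2, both known from neurons, were at 5.64 and 4.31 in knockout replicate 3, against 5.96 to 6.08 and 4.64 to 4.78 in the other 5 pools. That these 3 rows are low in this pool follows from how they were chosen. The marker Apom was at 7.35 in knockout replicate 3, against 8.78 and 9.01 in the other knockouts and 8.87 to 9.10 in heterozygotes. All 6 visceral endoderm markers had their lowest value in this pool. The part of this tissue in the Tet3 values was not tested.

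**Figure D3:**
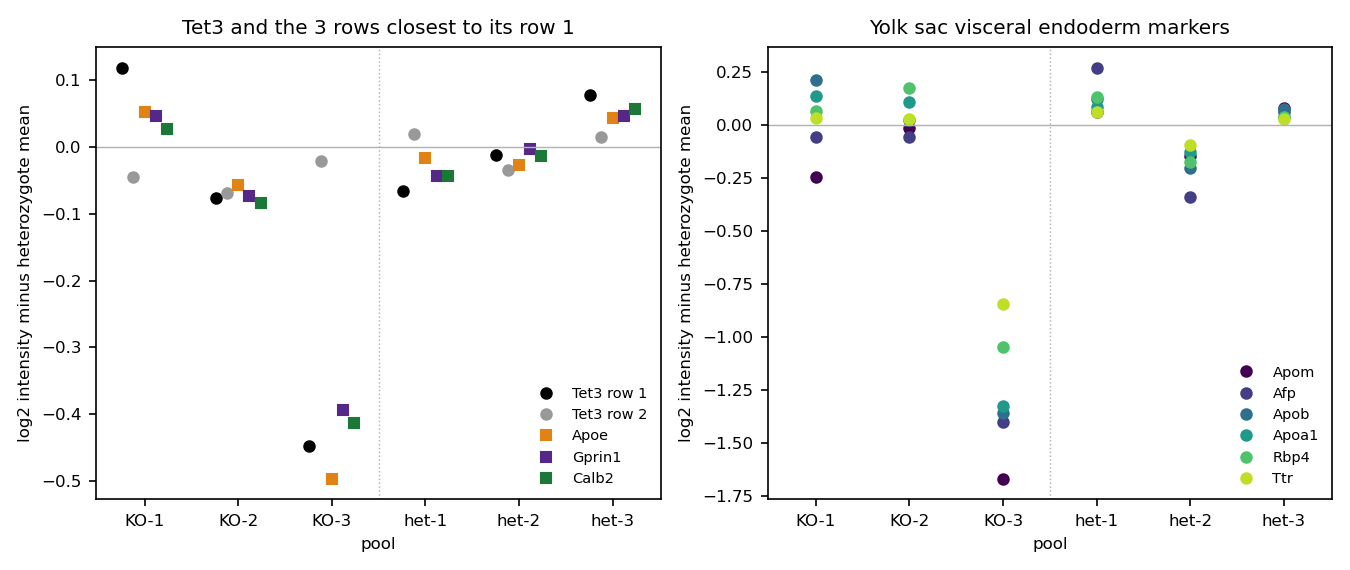
Log2 intensity in each pool minus the mean of the 3 heterozygote pools, with knockout pools left and heterozygote pools right of the dotted line, for both rows of Tet3 (circles) and the 3 rows closest to its row 1 (squares) in the left panel, and for 6 markers of yolk sac visceral endoderm in the right panel, whose scale is longer. In knockout replicate 3, Tet3 row 1 and all 6 markers lie low, Tet3 row 2 does not, and the 3 close rows follow row 1 because they were chosen for that.

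The genes that work with these enzymes were described by role, with 91 of 99 listed genes measured on 6 lists. In limma none had an adjusted p under 0.05. By unadjusted p, 1 was higher, or 1.1%, and 3 were lower, or 3.3%, neither above the shares of all rows given before. Without overlap of the pools, 11 were lower, or 12.1%, and 1 was higher, or 1.1%, beside 9.03% and 8.03% of all rows. Of the 91 genes, 55 lay in the brightest 7263 rows, where these shares were 16.8% and 3.06%, so the uneven split is no finding about the lists. Their median log2 fold change was -0.022. Of 8 methyl-CpG binding proteins, which read the mark, none had an unadjusted p under 0.05, and their values ran from -0.11 for Zbtb4 to 0.02 for Mbd2. The same held for 21 partners of the methyltransferases and Tet enzymes, from -0.12 for Cxxc4, a CXXC protein that binds Tet2, to 0.07 for Ogt, which attaches sugar to proteins and binds Tet enzymes. Hells, a remodeler needed for methylation of repeats, and Trim28, a corepressor at imprinted loci, were at 0.02 and 0.05.

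Of 19 genes of base excision repair and deaminases, 15 were negative, with a median of -0.055. Over all 21789 rows, 10956 were negative. Of the brightest 7263 rows, which hold 9 of the 19 genes, 5102 were negative, with a median of -0.035. Polb, the polymerase that fills the gap after a base is excised, was at 8.45, 8.52 and 8.48 in the knockout pools, against 8.84, 8.74 and 8.74 in the heterozygote pools. All knockouts lay below all heterozygotes. Its log2 fold change was -0.29, with a standard error of 0.06 and an interval from -0.42 to -0.16 (limma, unadjusted p = 9.64e-04, adjusted p = 0.356), and so it did not pass over all rows. Gadd45a, linked to demethylation by repair, was at -0.14 and Neil1, a glycosylase, at 0.07, the highest of the list. Of 10 genes of methyl donor supply, Shmt2, which makes one-carbon units from serine in mitochondria, was at 9.44, 9.62 and 9.50 in knockouts, against 9.76, 9.85 and 9.87 in heterozygotes. Here too the groups did not overlap, with a log2 fold change of -0.30 and an interval from -0.45 to -0.15 (limma, unadjusted p = 0.00194, adjusted p = 0.356). The cytosolic Shmt1 was at 0.01, and Ahcyl1, at 0.09, was the highest of the list. Polb and Shmt2 kept an unadjusted p under 0.05 in limma under all 16 alternatives, and their lowest adjusted p there was 0.18. Both were picked by their p in the same pools that the alternatives fit again, so this is no separate test.

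Germline genes that promoter DNA methylation is known to silence formed another list, but no methylation was measured, so their levels are only described. Of 17 measured, 11 were positive and 6 negative, with a median of 0.022, and 15 lay in the dimmest 7263 rows, whose own median was 0.056. Dpep3, a dipeptidase of the testis, was at 4.74, 4.46 and 4.57 in knockouts, against 4.34, 4.41 and 4.16 in heterozygotes, with a log2 fold change of 0.28 (limma, unadjusted p = 0.0163, adjusted p = 0.412). Sycp3, a protein of the meiotic chromosome axis, was lower at -0.14 (limma, unadjusted p = 0.0229, adjusted p = 0.416), with 4.09 to 4.10 in knockouts and 4.21 to 4.28 in heterozygotes. Under the alternatives, the unadjusted p in limma reached 0.0976 for Dpep3 and 0.111 for Sycp3. Ddx4, a helicase of germ cells, had the lowest value of the list, -0.26, which came from heterozygote replicate 2 at 4.78, against 3.94 to 4.03 in knockouts and 3.86 and 4.08 in the other heterozygotes. Mael, a germline gene of transposon defense, was at 0.13, with 3.07 to 3.19 in knockouts and 2.77 to 3.30 in heterozygotes.

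**Figure D4:**
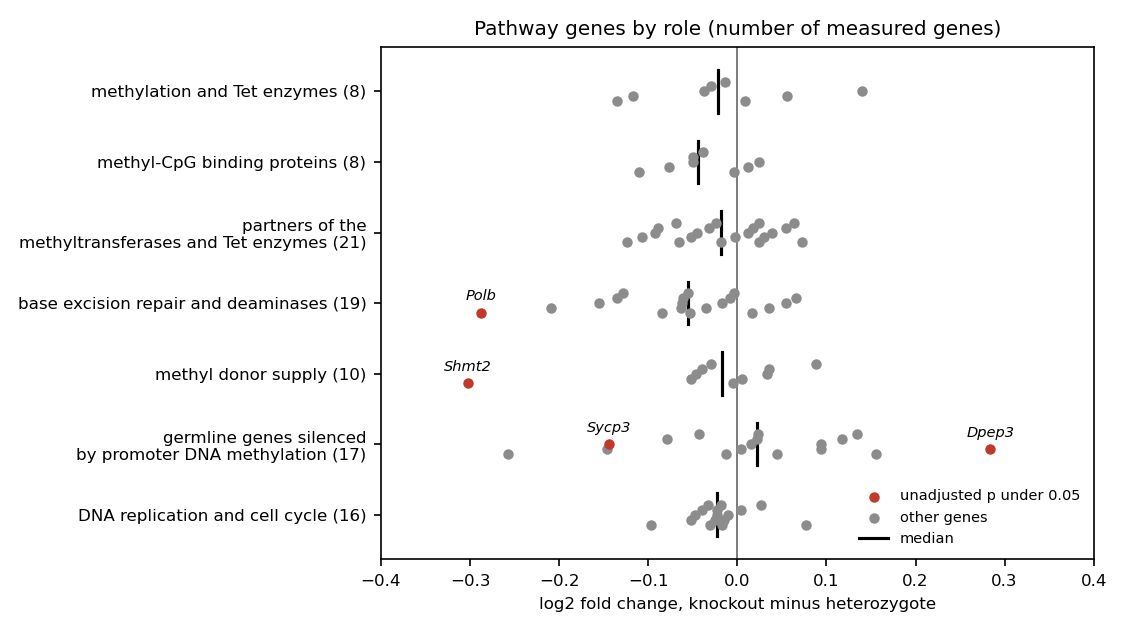
Points are genes, placed by their log2 fold change (knockout minus heterozygote), for the enzymes and for 6 lists of related genes, with the number of genes in parentheses, a black line at the median of each list, and genes at an unadjusted p under 0.05 in red and by name. All points lie between -0.30 and 0.28, and Polb, Shmt2 and Sycp3 are red on the lower side and Dpep3 on the higher side.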

How the data were processed

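The authors deposited intensity values made with RMA in Affymetrix Power Tools, per the labels' processing notes, on a linear scale from 2.53 to 11741. The version, genome build and probe annotation are not given in the sources used here. RMA equalizes the arrays, so a change common to all genes would not be seen. Of 35556 rows, 21789 with exactly 1 symbol were log2 transformed and compared between 3 knockout and 3 heterozygote pools in limma 3.58.1 under R 4.3.3, by a linear model with moderated variances and Benjamini-Hochberg adjustment over all of them. Symbols of 21698 rows were matched by gene number to RefSeq (GRCm38.p6). The script was tested on simulated data. Pools are called biological replicates in the methods, and a p-value reflects the spread of only 6 pools, whose number limits the precision.

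Members and lists were chosen with earlier results of these data known. Named genes were the members, Jarid1b, the highest, the lowest and all genes at an unadjusted p under 0.05 of each list, the 3 rows closest to the member of widest range, and markers beside members. Shmt1, Gadd45a, Hells, Trim28 and Mael were named after their values were seen. Listed genes beyond the 91 measured were not analysed here. Alternatives left out dim rows or single pools, used all rows or gene means, renormalized, changed the variance model or weights, or added a Y-linked covariate or replicate block.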

Additional observations from a re-analysis of the deposited data

How the results depend on the processing

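In 172 values of the 11 rows under 16 alternatives, none passed at an adjusted p under 0.05, and the lowest adjusted p was 0.397 (Dnmt3b with limma trend and robust). The sign turned in 22 values. Tet1 became 0.0035 as the mean of its rows, 0.020 after quantile normalization, 0.022 after cyclic loess and 0.040 with the Y-linked covariate. Tet1 row 2 became 0.026, 0.0275 and 0.069 in the last 3 of these settings. Dnmt3l became -0.0031 after quantile normalization and -2.64e-04 after cyclic loess, Dnmt3a 0.0022 after cyclic loess, and Dnmt1 -0.024 with the Y-linked covariate. Leaving out 1 pool at a time gave -0.011 to 0.029 for Dnmt1, -0.010 to 0.091 for Dnmt3l, -0.054 to 0.026 for Tet1, -0.066 to 0.027 for its row 2, -0.052 to 0.090 for its row 3 and -0.26 to 0.022 for Tet3. Dnmt3b stayed negative, from -0.16 to -0.09, Tet2 positive, from 0.05 to 0.22, and Jarid1b between -1.60 and -1.48. The count of enzymes lower at an unadjusted p under 0.05 became 1 with trend and robust (Dnmt3b). Without single pools, the counts lower and higher each lay between 0 and 1, with Dnmt3b lower and Tet2 higher without knockout replicate 1 (limma, unadjusted p = 0.0279 and 0.0271). Of 192 counts for the 6 lists, 23 moved by over 1.5 times, each by 1 or 2 genes. Repair genes lower were 3 without knockout replicate 2 or heterozygote replicate 1 and 2 under 4 other settings, against 1 in the reported fit. Partners lower became 1 under 5 settings, among them without knockout replicate 1, and replication genes 1 in each direction with trend and robust. Germline genes higher and lower each lay between 0 and 2, where leaving out dim rows removed most of the list, and without heterozygote replicate 3 they were 0 and 2. The overlap of pools under other normalizations was examined after seeing the data. Same-numbered pools deviated together little (correlations of 0, 0.11 and -0.01 across rows), and only knockout replicate 2 was closest to the heterozygote pool of its own number. Low correlations cannot exclude a pairing, so whether the numbers pair the samples stayed undecided. A replicate block left Dnmt3b at -0.12 (limma, adjusted p = 0.569).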
